A study of Mus musculus with 6 samples.

Results

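Genes named Zfp with a number (zinc finger protein) were followed through the splicing-sensitive arrays of brain RNA from the *Nxf1* congenic stock. They were taken by name alone, as every symbol that begins with Zfp and a digit, leaving out events within chr19:7053631-11866235 around *Nxf1*. The table held 202 alternative events in 124 such genes, of 13002 events in 7788 genes, and all 202 had intensities for both of their paths. No Zfp event lay in the interval that was left out. *Zfp69*, whose intronic retroviral insertion (an intracisternal A particle) was assayed elsewhere in the study, had no event on this platform.

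Most Zfp proteins are transcription factors that grip DNA with arrays of zinc fingers, small folds in which cysteines and histidines hold a zinc ion and each finger reads a few bases. Many carry a KRAB domain, which recruits the corepressor Trim28 and silences chromatin, and such genes lie in clusters of near-identical neighbours that silence retroviral elements. A minority bind RNA or share only the name. One member, listed as *Zfp294*, is listerin (*Ltn1*), a ubiquitin ligase of stalled ribosomes. Of the 124 symbols, 116 are current RefSeq symbols and 8 are older ones, among them *Zfp238* for *Zbtb18*.

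Nxf1 is the main mRNA export factor, and the study asked whether its CAST allele shifts ordinary splicing choices as it does those at retroviral insertions. The 6 mice belonged to the B6.CAST congenic line, in which the CAST/Ei chromosome 19 segment had been backcrossed to C57BL/6J. Of these, 3 were homozygous for *Nxf1* B6 and 3 for *Nxf1* CAST, in 3 untreated same-sex littermate pairs. A female pair was 46 days old and another 23 days, and in the male pair the *Nxf1* B6 mouse was 22 and the *Nxf1* CAST mouse 23 days old. Each sample was total RNA of 1 brain, so that a change in a cell type's share and a change in its RNA cannot be told apart. Every mouse carried the congenic background, and linked CAST alleles travel with *Nxf1* CAST, so the effect of *Nxf1* and of its neighbours cannot be told apart here. Markers of the tissue were read first: the highest intensity of *Snap25*, a synaptic vesicle fusion protein, reached 12087 in array set A and 11162 in array set B. *Mbp*, of myelin, reached 11314 and 10504, and *Aqp4*, the astrocyte water channel, 1794 and 1838. For the muscle genes *Myh6* and *Ttn* the highest were 349 and 356 and 271 and 284, and 4 of 6 markers of other tissues had no event. These values are given for each gene by itself, since intensities of different probe sets are not on 1 scale.

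For each event the table gives an exclusion intensity (probe sets of the path that skips a segment) and an inclusion intensity (probe sets of the path that holds it), each pooled over the arrays of a set called A or B. The sets are not named by genotype. From the table's definition of its score, set B was likely *Nxf1* CAST. The score used here is the log2 of 1 ratio over another, exclusion to inclusion in set B divided by the same in set A. Scores above 0 thus stand for a larger weight of exclusion in set B. An absolute score over 0.5, about 1.41-fold, is called past the threshold below. The study also required a low false discovery rate, and far fewer events met both of its criteria than the 950 that pass here by size. Its gel assays at unlinked sites without such an insertion showed no nominally significant difference between *Nxf1* alleles. Passing the threshold is thus a size and not a call of an allele effect. Values per array are not in the table, so no replicate error, interval or test of a score could be computed from the intensities, and the authors' own q-values in the table were not used. Intensities of different probe sets are not on 1 scale of abundance, so no gene's level is set against another's below. Mean intensities serve only to say how bright the probe sets of events were.

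Of the 202 Zfp events, 16 (7.92%) passed the threshold, against 7.34% of the 12948 scored events of the table. The 16 lay in 16 different genes, 12.9% of the Zfp genes, against 11.7% of all genes. The Zfp genes thus passed at about the rate of the table as a whole. With 50 added to each intensity, which damps differences between dim probe sets, 7 Zfp events passed (3.47%), against 3.18% of the table. The median absolute score was 0.19 for Zfp events and 0.18 for all events, and the 90th percentiles were 0.46 and 0.45. Zfp events were somewhat dimmer, with a median intensity over both paths and sets of 305.5 against 363 for the table. Of 73 events in 52 genes with other zinc finger names, 3 passed (4.11%), and of 131 events in genes of chromatin regulators, 11 passed (8.40%).

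Scores of Zfp events lay on both sides of 0. Of 194 events with an exclusion path, 110 (56.7%) had a score above 0 and 84 below, close to the 55.3% above 0 over all events. The lowest score was -0.60 (*Zfp697*), the median 0.05 and the highest 0.93 (*Zfp180*). Past the threshold, 14 events had an exclusion path, of which 12 scored above 0 and 2 below. For the table, 4.52% of events passed above 0 and 2.72% below. The share of past-threshold events that scored above 0 was 85.7% for Zfp genes and 62.4% for the table, and this difference rests on 2 Zfp events below 0 and was not tested. At an absolute score over 0.3 it was 65.5% of 58 Zfp events against 59.2% for the table, and with 50 added to each intensity 80.0% of 5 against 61.3%. With the median score of all exclusion paths subtracted, it was 83.3% of 12 Zfp events against 50.6% for the table.

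**Figure D1:**
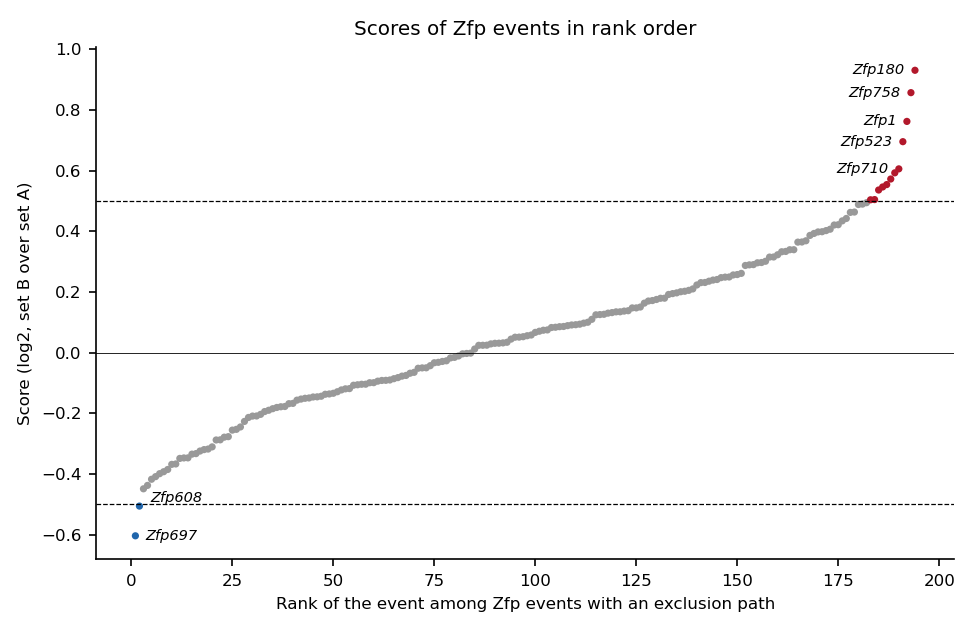
Scores (log2, set B over set A) of the 194 Zfp events with an exclusion path, in rank order, with dashed lines at 0.5 and -0.5. Red points (12) and blue points (2) are past the threshold, and the remainder form a continuous run from one line to the other.

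The Zfp gene with the largest score, *Zfp180*, encodes a KRAB zinc finger protein. Its complex event around a 34-nt segment (chr7:24882914-24886506, plus strand, as in the table, whose genome build is not stated) had exclusion intensities of 85 (set A) and 130 (set B, the order used from here on). The inclusion intensities were 96 and 77, which gave a score of 0.93. Both paths were dim, and with 50 added to each intensity the score was 0.62, below those of *Zfp131* (0.73), *Zfp219* (0.66), *Zfp1* (0.64) and *Zfp523* (0.63). A second complex event of the gene, at chr7:24870505-24889444, scored -0.09. The 98-nt cassette exon of *Zfp758* (chr17:22498674-22510609) had 197 and 253 for exclusion and 79 and 56 for inclusion, a score of 0.86. In *Zfp1* (chr8:114182341-114190019), a complex event with a 41-nt segment had exclusion of 459 and 584 and inclusion of 192 and 144, a score of 0.76. The 107-nt cassette exon of *Zfp1* scored -0.19, so its events had scores of opposite sign. In *Zfp180* the signs differed too, but the second event spans the first and its score lay near 0.

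*Zfp523*, the mouse counterpart of human ZNF76 and a relative of the promoter-binding factor Zfp143, had a complex event at chr17:28326887-28334835 with a score of 0.70. Between set A and set B, exclusion stood at 380 and 595, while inclusion was 902 and 872, so that nearly all of the difference lay in the exclusion path. *Zfp710* (alternative end, chr7:87231514-87237258) scored 0.61, with exclusion of 191 and 239 and inclusion of 253 and 208. In *Zfp740*, by contrast, the exclusion path of a 35-nt alternative 3' splice site differed little (537 and 578) and inclusion was 236 and 173, a score of 0.55. The cassette exon of *Zfp740* (77 nt) scored -0.20 and its alternative 5' splice site 0.33.

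Cassette exons of *Zfp708*, *Zfp346* and *Zfp410* also passed. *Zfp708* is a KRAB gene of the chromosome 13 cluster whose product binds retroelements, and its 96-nt exon (chr13:67172464-67175768) had exclusion of 95 and 122 and inclusion of 451 and 384, a score of 0.59. *Zfp346* encodes JAZ, a nuclear protein that binds double-stranded RNA, and its 94-nt exon (chr13:55223876-55233667) had exclusion of 104 and 131 and inclusion of 549 and 465, a score of 0.57. *Zfp410*, a regulator of the chromatin remodeller gene *Chd4*, lay at the threshold, with exclusion of 65 and 78 and inclusion of 273 and 231 for its 180-nt exon, a score of 0.50. Exclusion intensities of these 3 exons were low, from 65 to 131, and with 50 added to each intensity before the ratio the scores were under the threshold (0.45, 0.45 and 0.36).

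Just inside the threshold stood also the 227-nt retained intron of *Zfp142* (chr1:74634325-74634554), a gene linked to neurodevelopmental disorder, with exclusion of 419 and 507, inclusion of 496 and 423 and a score of 0.50. Just outside stood alternative starts of *Zfp330*, which encodes a nucleolar protein (75 and 86 for exclusion, 559 and 455 for inclusion), and of *Zfp74* (168 and 221, then 269 and 252), both with scores of 0.49. A 41-nt cassette exon of *Zfp521*, a factor of neural progenitors, likewise scored 0.49, with exclusion of 134 and 179 and inclusion of 669 and 637. With 50 added, *Zfp142* scored 0.46, *Zfp740* 0.46 and *Zfp710* 0.49. The events past the threshold were completed above 0 by *Zfp87* (0.55) and *Zfp92* (0.54), which did not pass with 50 added.

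Below 0, a complex event of *Zfp697* (chr3:98186389-98235630) had exclusion of 332 and 316 and inclusion of 696 and 1007, a score of -0.60. The other event of *Zfp697*, whose span overlaps this one, scored 0.10. The alternative start of *Zfp608* on chromosome 18 had exclusion of 432 and 356 and inclusion of 270 and 316, a score of -0.51, while alternative ends of the gene scored 0.26 and 0.04. With 50 added, *Zfp697* scored -0.56 and *Zfp608* -0.44. Events without an exclusion path compare several inclusion paths with a reference path and have no exclusion sign, and 2 of the 8 in Zfp genes passed, against 10.6% of 388 such events in the table. In *Zfp131*, a BTB zinc finger gene whose event the table places on chr13_random, a path had 176 and 294 against a reference path of 735 and 671 (0.87), and another 345 and 415 (0.40). In *Zfp219*, a transcription factor gene, a path had 617 and 853 against 641 and 544 (0.70), and other paths scored 0.60 and 0.39.

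**Figure D2:**
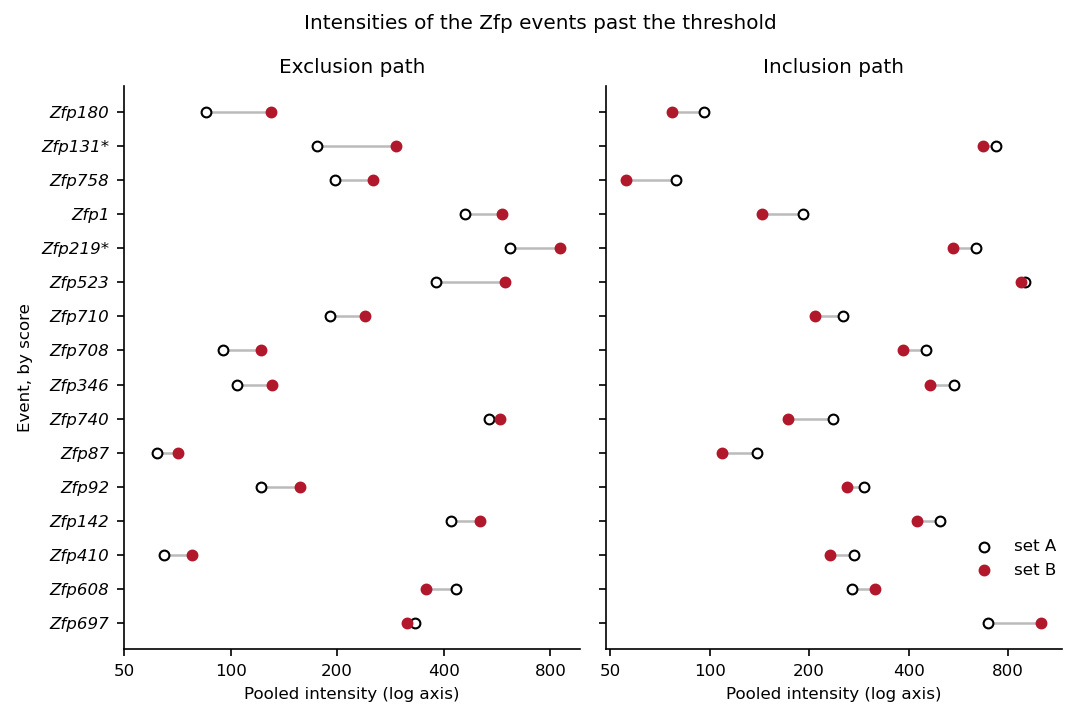
Pooled intensities (log axis) in set A (open) and set B (filled) of the 16 Zfp events past the threshold, ordered by score, with the exclusion path on the left and the inclusion path on the right. For *Zfp131* and *Zfp219*, marked by an asterisk, the left panel shows an alternative path and the right the reference path. In the 12 other rows from *Zfp180* to *Zfp410*, set B lies to the right for exclusion and to the left for inclusion.

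The 2 paths of these events differed in opposite directions. In all 12 Zfp events that passed above 0, set B had the higher exclusion and the lower inclusion intensity, compared with 465 of 567 such events of the table. A score above 0 fixes only the ratio, but choosing events by a large score favours paths that differ in opposite directions, so this is a description. The exclusion change (log2, set B over set A) ran from 0.11 to 0.65 with a median of 0.34. The inclusion change ran from -0.50 to -0.05 with a median of -0.26. The change of the summed intensity of both paths (log2) had a median of 0.02 over Zfp events, with quartiles of -0.09 and 0.12. The median for the table was -0.00454. The highest sum was at the 107-nt cassette exon of *Zfp628* (0.41), whose score was 0.14, and the lowest at the 216-nt retained intron of *Zfp207* (-0.49), where exclusion was 106 and 64 and inclusion 572 and 419. Alternative starts of *Zfp395* and *Zfp148* both had a summed change of 0.40, with inclusion of 579 and 802 and of 915 and 1265, and scores of -0.32 and -0.33.

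**Figure D3:**
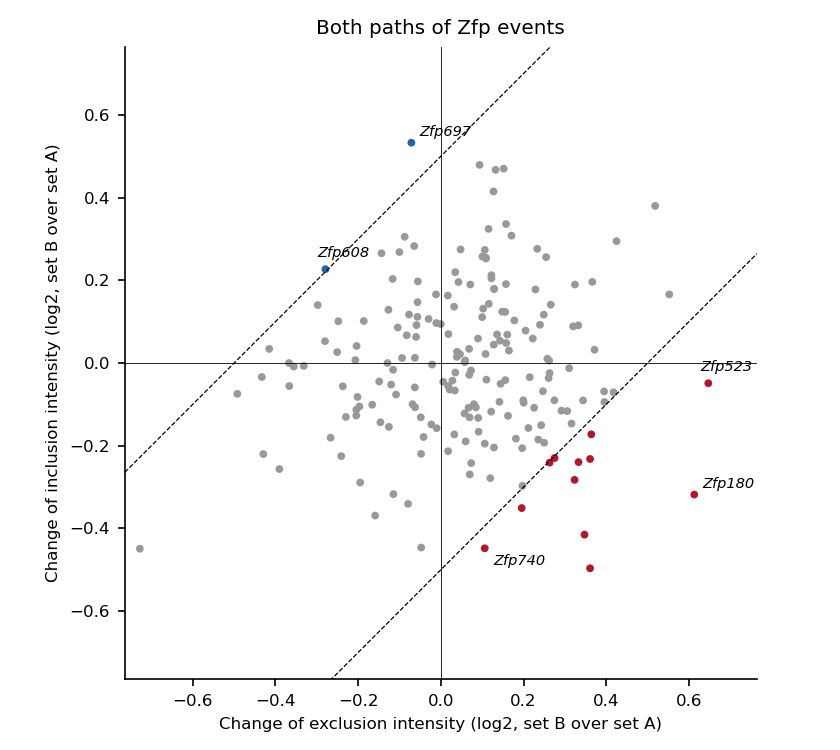
Change of inclusion intensity against change of exclusion intensity (both log2, set B over set A) for the 194 Zfp events with an exclusion path. Dashed lines mark scores of 0.5 (lower right) and -0.5 (upper left). The 12 red events all lie where both differ, with higher exclusion and lower inclusion in set B.

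By kind of event, Zfp genes held fewer cassette exons than the table (17.8% of their events against 29.1%) and more alternative 3' splice sites (11.4% against 6.20%). Among 36 Zfp cassette exons, 25 (69.4%) scored above 0, against 56.7% of all cassette exons with a sign, and the median score was 0.19 against 0.04. Of these 36, 4 passed the threshold (11.1%, against 8.56% of all cassette exons), all above 0, and with 50 added to each intensity *Zfp758* alone of these 4 passed. Of Zfp alternative starts, fewer than in the table scored above 0, with 16 of 39 (41.0%) above 0 against 51.3%, and a median score of -0.07 against 0.01. For 23 alternative 3' splice sites the median was 0.19 against 0.09, with 15 above 0 (65.2%, against 60.6%) and 1 past (4.35%, against 9.09%). Of 29 complex events 5 passed (17.2%, against 8.38%), and of 39 alternative ends 2 (5.13%, against 2.78%). Of 11 alternative 5' splice sites and 4 twin cassettes 0 passed, against 10.8% and 10.5% of all events of these types. Each of these shares rests on few events, and events of a gene share exons.

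**Figure D4:**
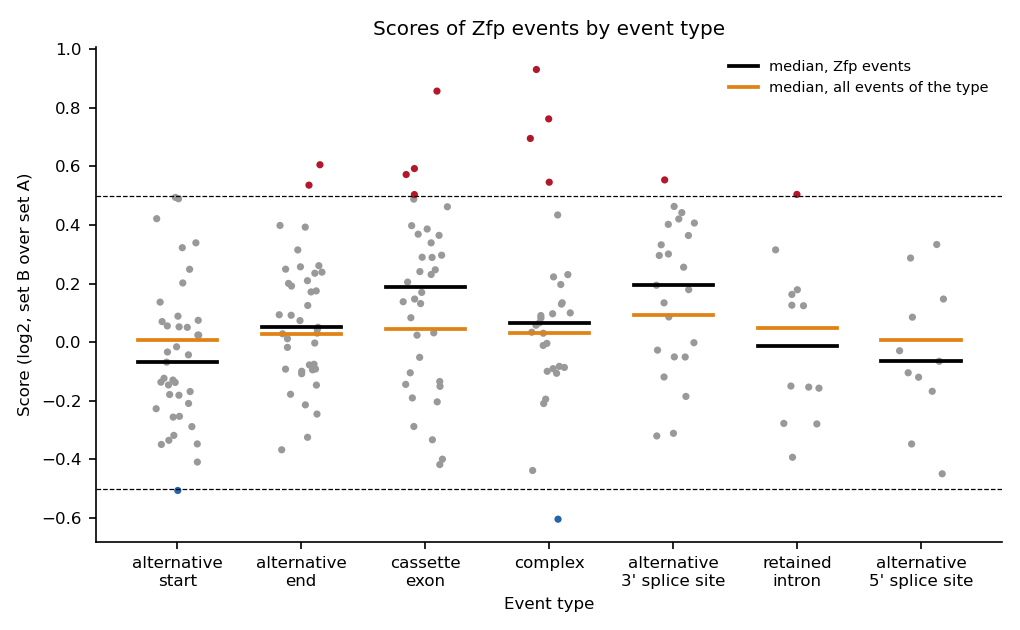
Scores (log2, set B over set A) of Zfp events of each type with at least 10 such events, 1 point per event, spread sideways for visibility. Black bars are medians of Zfp events and orange bars medians of all events of the type. The black bar lies above the orange bar for cassette exons (0.19 and 0.04) and below it for alternative starts (-0.07 and 0.01).

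The numbers in event names were taken as the length of the alternative segment. For retained introns, the span exceeded the number by 0 to 4 nt in 1001 of 1068 cases (93.7%). The numbers of cassette exons were not checked in this way. Zfp cassette exons had a median length of 95 nt (101 nt in the table), and 17 of 36 (47.2%) were a multiple of 3 long, which keeps the reading frame within coding sequence, against 53.2% of all. Of the 4 Zfp cassette exons past the threshold, the numbers for *Zfp708* and *Zfp410* were multiples of 3 and those for *Zfp758* and *Zfp346* were not. Whether these exons lie in coding sequence was not checked. With the table's events cut by mean intensity into 4 bins of about equal number, the bins from dimmest to brightest held 54, 67, 54 and 27 Zfp events, of which 5, 5, 4 and 2 passed. These are 9.26%, 7.46%, 7.41% and 7.41%, against 8.59%, 8.78%, 6.97% and 5.0% of all events in the bins. By position, the most Zfp events lay on chromosome 7 (38 events in 23 genes, of which 2 events or 5.26% passed, against 7.50% of all events there), followed by chromosomes 11 and 13 (18 each). On chromosome 11, 0 of 18 passed, against 8.85% of all events there. On chromosome 13, 3 of 18 passed, against 6.34% of all events there, in *Zfp708*, *Zfp346* and *Zfp87*, the last a KRAB gene of the same cluster as *Zfp708*. With 50 added to each intensity none of these 3 passed. Events under the symbol *Zfp87* lay at chr13:67448905-67473113, the one past the threshold, and between positions 67591549 and 67627070, apart from it. Cross-hybridization among near-identical members of the clusters was not tested.

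Of the 124 genes, 70 had 1 event, 34 had 2, 16 had 3 and 4 had 4. Among 53 genes with several signed events, 11 had all scores above 0, 4 all below and 38 on both sides, and the median range within a gene was 0.42. No Zfp gene had more than 1 event past the threshold. Over the whole table, 950 events past the threshold lay in 909 genes, so more than 1 in a gene was uncommon there too. The split of signs and the range within a gene were not computed for all genes, so neither is read as particular to Zfp genes. *Zfp346* scored 0.57, 0.41 and 0.29 at its 3 events, of which the last pair overlap. *Zfp467* scored 0.42, 0.30, 0.25 and 0.09, all below the threshold. *Zfp142* scored 0.50, 0.44 and 0.43, and its alternative end -0.09, and all of these but the first (0.50) share a boundary and overlap. *Zfp426* had events at 0.40, 0.40 and -0.10, of which the second overlaps both others. Overlapping events are not separate observations.

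**Figure D5:**
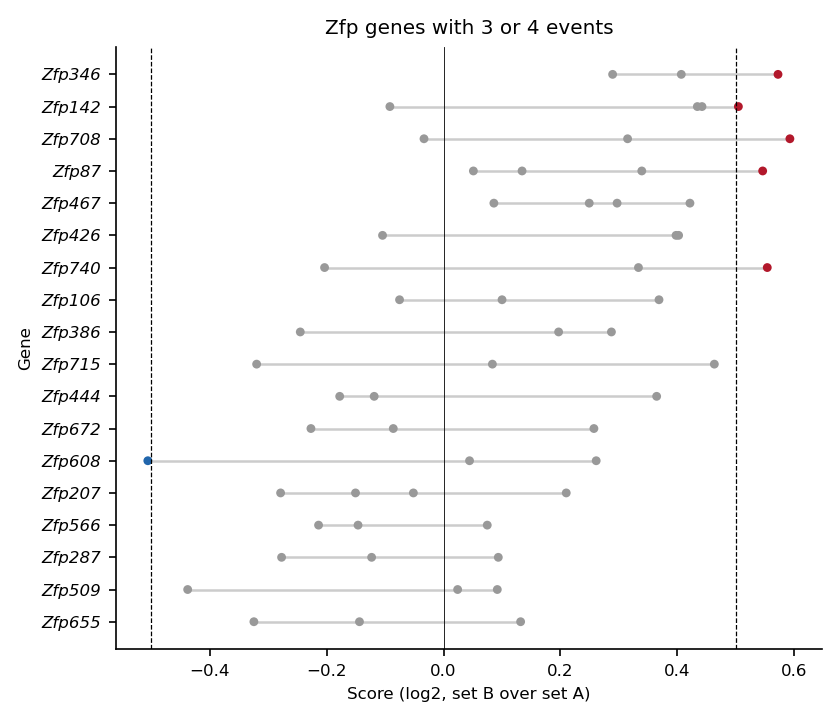
Scores (log2, set B over set A) of the 18 Zfp genes with at least 3 events that have an exclusion path, 1 point per event and 1 row per gene, ordered by mean score. Most rows cross 0, and each of the 6 genes with an event past a dashed line (0.5 or -0.5) has its other events between the lines.

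Grouped by what the proteins are known to do, the lists held 0 to 3 events past the threshold each, to be read beside the 7.34% of all events that passed, and with so few events nothing is drawn from a list's share. Of 14 listed genes for RNA-binding proteins or RNA processing, 7 had events (15 in all) and only *Zfp346* passed, with a median absolute score of 0.15. *Zfp207*, which encodes a microtubule-binding protein of the spindle, scored 0.21, -0.05, -0.15 and -0.28 at 4 events, the last of which scored -0.05 with 50 added to each intensity. *Zfp106*, an RNA-binding protein needed by motor neurons, scored 0.37, 0.10 and -0.08, and *Zfp318* scored 0.07 and -0.02. The 48-nt exon of *Zfp207*, with a score of -0.05, had exclusion of 1637 and 1658 and inclusion of 3260 and 3422.

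Among 7 listed genes that silence retroelements or imprints, 5 had events (8 in all), and *Zfp708* alone passed. *Zfp809*, which silences proviruses, scored 0.33 and -0.10, *Zfp445*, which guards imprints, 0.30, and *Zfp42* (Rex1, a pluripotency marker) 0.15. Of 12 listed genes of neural development, 4 had events (7 in all) and 0 passed, with absolute scores from 0.16 to 0.49 and a median of 0.26. *Zfp521* scored 0.49 and -0.26, *Zfp238*, a repressor in developing cortical neurons, 0.16 and -0.35, and *Zfp365* 0.25. *Zfp536*, a repressor of neuronal differentiation, scored 0.40 and, at an event without an exclusion path, 0.21. Other paths of that event scored 0.11 and -0.15. Of 6 listed genes of apoptosis and neurotrophin signalling, 2 had events (5 in all). *Zfp346*, which is also in the RNA list, passed at 1 of its 3 events, and *Zfp91* scored 0.07 and 0.06. Of 14 listed sequence-specific regulators of growth and differentiation, 12 had events (19 in all), of which *Zfp131*, *Zfp219* and *Zfp410* passed. The other named genes of that list did not: *Zfp287* scored 0.09, -0.12 and -0.28, *Zfp322a* 0.02 and -0.45, and the second event of *Zfp410* 0.06.

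Promoters of the Zfp genes were read for what the choice by name did not use. RefSeq promoters of 300 bases (250 before to 50 after the start, assembly GRCm38.p6, which is not the build of the event positions) were at hand for 101 of the genes, 149 promoters in all. The letters ACTACAA, the core of the element bound by Zfp143 and its relative Zfp523, stood on either strand in 14 of 149 (9.40%), in 12 genes, against 3.24% of all 32851 promoters. GGGCGG, on either strand, stood in 47.0% against 35.7%, TATAAA, likewise, in 9.40% against 13.6%, and the median number of CpG was 16 against 7. ACTACAA was chosen after the sequences had been seen, and promoters of clustered genes share descent, so these shares are a description. The largest absolute score of these 12 genes ran from 0.01 (*Zfp606*) to 0.93 (*Zfp180*). The promoters below are those of *Zfp180*, *Zfp758* and *Zfp1*, which had the 3 highest scores with a sign before any intensity was added, and of *Zfp697*, which had the lowest, each 5' to 3' on the gene's plus strand. They are at chr7:24081647-24081946, chr17:22361213-22361512, chr8:111643193-111643492 and chr3:98382231-98382530 of GRCm38.p6. Capitals mark ACTACAA or its reverse complement, and *Zfp758* holds neither.
Zfp180: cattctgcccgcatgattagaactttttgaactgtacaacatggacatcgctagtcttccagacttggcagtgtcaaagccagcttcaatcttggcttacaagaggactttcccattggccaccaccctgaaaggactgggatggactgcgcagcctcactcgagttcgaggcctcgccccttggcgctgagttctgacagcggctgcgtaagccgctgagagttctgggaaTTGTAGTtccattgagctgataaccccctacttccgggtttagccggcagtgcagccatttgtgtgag
Zfp758: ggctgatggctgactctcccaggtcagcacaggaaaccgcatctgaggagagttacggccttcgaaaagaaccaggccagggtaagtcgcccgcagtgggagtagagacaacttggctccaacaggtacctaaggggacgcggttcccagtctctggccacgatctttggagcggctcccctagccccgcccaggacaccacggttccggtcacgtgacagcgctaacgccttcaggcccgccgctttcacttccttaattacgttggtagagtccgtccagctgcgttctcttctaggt
Zfp1: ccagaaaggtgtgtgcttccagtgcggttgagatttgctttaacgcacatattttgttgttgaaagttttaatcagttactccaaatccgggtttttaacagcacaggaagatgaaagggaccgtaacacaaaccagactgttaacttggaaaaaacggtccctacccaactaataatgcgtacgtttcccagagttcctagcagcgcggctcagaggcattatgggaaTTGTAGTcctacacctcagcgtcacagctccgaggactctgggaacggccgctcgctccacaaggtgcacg
Zfp697: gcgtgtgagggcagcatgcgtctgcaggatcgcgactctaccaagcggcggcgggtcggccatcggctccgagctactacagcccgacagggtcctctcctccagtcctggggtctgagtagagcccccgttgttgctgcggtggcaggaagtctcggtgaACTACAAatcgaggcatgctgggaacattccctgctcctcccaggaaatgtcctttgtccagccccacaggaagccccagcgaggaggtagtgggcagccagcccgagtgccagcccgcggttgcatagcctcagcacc
In *Zfp180* and *Zfp1* the letters stand on the opposite strand in the same short context, ggaaTTGTAGTtc or ggaaTTGTAGTcc, and in *Zfp697* on the gene's own strand. The arrays measured the paths of an event and not promoter use as such, apart from alternative starts, and no relation between these letters and the scores was tested.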

How the data were processed

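Brain RNA of 6 mice was hybridized to Affymetrix MJAY splicing-sensitive arrays. The deposited table holds, for each path of an event, exclusion and inclusion intensities of sets A and B as whole numbers, which the authors pooled over the arrays of a set, for a paired and a standard comparison. The paired columns were used. The submitters' processing notes name Affymetrix Power Tools. Its version, the array normalization and the genome build are not given in the sources used here. The separation scores and q-values that the table also holds are the authors' own comparison and were not used.

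Scores were computed from the 4 intensities of each path, log2 of the exclusion to inclusion ratio in set B over set A. An event took the path with the largest absolute score and the sign of its exclusion path. The threshold (0.5) is the size in the study's methods, without its q. The scoring code was checked on simulated intensities with known changes, which says nothing of the error of the measured scores. Without values per array there was no test, no spread between mice and no check for batches. The number of arrays limits the precision.

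Members, role lists and tests were chosen with earlier results of these data known. Named are up to 10 events past the threshold at each end of the scores (2 passed below 0), the 3 nearest to it on each side, *Zfp69*, and up to 4 genes per role list, those with most events. *Zfp87*, *Zfp92*, *Zfp148*, *Zfp395*, *Zfp426*, *Zfp628* and the promoters' genes were named after their values were seen. Alternatives were other thresholds, dim probe sets, the path standing for an event, centring, 1 event per gene and ambiguous symbols. Python 3.11.15, numpy 2.4.6, pandas 2.3.3 and matplotlib 3.10.9 were used.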

Additional observations from a re-analysis of the deposited data

How the results depend on the processing

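Among 202 Zfp events, 61 (30.2%, in 42.7% of the genes) had an absolute score over 0.3, against 26.0% of all events, and 0 (0% of events and of genes) over 1, against 0.224%. With 50 added to each intensity, 7 passed 0.5 (3.47%, in 5.65% of the genes), against 3.18% of all events, and these were *Zfp131*, *Zfp180*, *Zfp1*, *Zfp219*, *Zfp523*, *Zfp758* and, below 0, *Zfp697*. The other calls were lost there, those of *Zfp87* and *Zfp92* and of *Zfp710*, *Zfp708*, *Zfp346*, *Zfp740*, *Zfp142*, *Zfp410* and *Zfp608*, the last 7 with scores of 0.49, 0.45, 0.45, 0.46, 0.46, 0.36 and -0.44. With 1 event per gene, the brightest, 8 of 124 passed (6.45% of genes, against 7.38% of all genes so taken). The median absolute score was 0.16 with 50 added, 0.18 by the exclusion path alone, 0.18 by the median over paths and 0.18 with 1 event per gene. The median summed change was 0.0279 relative to the median of all events, 0.0143 relative to that of the event type and 0.0353 with 1 event per gene. Centring on all exclusion paths left 14 events past (6.93%, against 7.17% of all events) and centring within type 13 (6.44%, against 7.07%): *Zfp142* (0.47 and 0.46) and *Zfp410* (0.47 and 0.46) were lost in both, and *Zfp740* (0.46) in the second. Small scores of *Zfp322a* (-0.01 and -0.02) and *Zfp467* (-0.01 within type) changed sign. By the exclusion path alone 14 of 194 passed (7.22%, against 7.24%). Leaving out paths with an intensity under 50, or ambiguous symbols, removed none of the 202 Zfp events and left 16, so neither setting could move a Zfp count. No share above 0 exists over 1, where no Zfp event passed.

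No paired analysis was possible because the intensities, those of the authors' paired comparison used here included, are pooled over the arrays of each set and hold no value per pair. For the same reason leaving out a mouse in turn was not run.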
